A study of Homo sapiens with 19 samples.

Results

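The genes described here are the H2A.Z genes and the factors that put H2A.Z into nucleosomes or take it out, 10 of the 34825 genes in the tables. They were chosen by symbol and by role: H2AFZ and H2AFV, the ATPases SRCAP and EP400, the H2A.Z-binding proteins ANP32E and VPS72, and the subunits ZNHIT1, ACTR6, YEATS4 and DMAP1. All 10 had a row in each table and passed the filter on low values in each.

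The mRNA came from HepG2, a cell line from a human liver cancer, harvested 72 h after transfection with 50 nM siRNA. In the INO80 experiment, cells received a control siRNA (NTG) or 1 of 2 siRNAs against INO80 (siINO80#1, siINO80#2), with 3 libraries each. In the second experiment, cells received 1 µM EPZ-6438, which blocks EZH2, the enzyme that methylates H3K27, or its vehicle DMSO from 3 days before transfection, and then NTG or an siRNA against the INO80 complex subunit MCRS1 (siMCRS1). There were 2 libraries of DMSO with NTG, 3 of DMSO with siMCRS1, 3 of EPZ-6438 with NTG and 2 of EPZ-6438 with siMCRS1. Every group was transfected, including the controls, and nothing in the sources used here says that the libraries of a group came from separate cultures, so p-values measure only the spread between these libraries.

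H2A.Z is a variant of the core histone H2A that marks nucleosomes around transcription start sites and enhancers. A pair of genes encodes it, H2AFZ (now H2AZ1) and H2AFV (now H2AZ2), whose protein products are nearly the same. The remodelers built on SRCAP and EP400 exchange an H2A-H2B dimer of the nucleosome for an H2A.Z-H2B dimer, ANP32E is a chaperone that removes H2A.Z, and INO80 is a remodeler of the same family.

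The promoters of the H2A.Z gene pair are shown because the balance between H2AFZ and H2AFV is among the measured results. Each is the 250 bases before the start given by RefSeq on GRCh38.p14, on the minus strand, and capitals mark the CCAAT box, the letters bound by the factor NF-Y, on either strand (CCAAT or ATTGG).
H2AFZ, chr4:99950276-99950525: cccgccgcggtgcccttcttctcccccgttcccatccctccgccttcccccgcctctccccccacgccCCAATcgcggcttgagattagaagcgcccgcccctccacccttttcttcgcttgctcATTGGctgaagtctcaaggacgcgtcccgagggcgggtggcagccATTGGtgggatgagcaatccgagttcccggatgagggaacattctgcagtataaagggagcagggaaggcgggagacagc
H2AFV, chr7:44848088-44848337: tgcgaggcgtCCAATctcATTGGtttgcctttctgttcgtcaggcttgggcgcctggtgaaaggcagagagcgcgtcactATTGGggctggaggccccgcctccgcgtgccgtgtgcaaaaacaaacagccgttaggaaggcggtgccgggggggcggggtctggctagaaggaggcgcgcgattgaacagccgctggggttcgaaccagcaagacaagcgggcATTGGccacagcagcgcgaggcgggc

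The H2AFZ window held 3 CCAAT boxes, whose first bases lay at -182, -125 and -80 from the start. The H2AFV window held 4, at -240, -232, -170 and -26. Over 35116 RefSeq promoters searched in the same 300-base window, which also takes in the first 50 bases of the gene, 34.6% held at least 1 CCAAT box, 3.26% at least 3 and 0.991% at least 4. Of the 10 genes, 8 had a promoter in the table (not ANP32E or VPS72). Outside the H2A.Z pair, ZNHIT1 and DMAP1 held 1 CCAAT box each and SRCAP, EP400, ACTR6 and YEATS4 held none. The letters AANATGGC, the core recognised by the INO80 complex partner YY1, were present on either strand in 6.58% of all promoters and, among the 8, in ZNHIT1, at -133 from its start. The E2F letters TTTNGCGC, in 1.79% of all promoters, were in none of the 8. TTTGAA, the core of the CHR element of cell cycle genes, was in 15.2% of all promoters and in H2AFZ and YEATS4.

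The siRNAs lowered their targets in every library. INO80 was at 1278, 1338 and 1175 normalized counts with NTG, 576, 638 and 609 with siINO80#1 and 440, 456 and 483 with siINO80#2. MCRS1 was at 1577 and 1283 in DMSO with NTG against 140, 84 and 119 with siMCRS1, and at 1533, 1355 and 1201 in EPZ-6438 with NTG against 126 and 91 with siMCRS1. Depth ranged from 17093574 to 25369547 reads per library with INO80 siRNAs and from 26038505 to 47397233 with the drug and siMCRS1, and 3 reads corresponded to between 2.13 and 4.30 normalized counts, far below every value of the 10 genes. All 9 hepatocyte markers examined were present in every library, ALB at 109070 or more. Of 6 markers of other cell types, over all 19 libraries, the macrophage gene CD68 was at 579 to 1597, the endothelial PECAM1 at 138 to 326, the leukocyte PTPRC at 9.70 to 35.9, and the fibroblast genes COL1A1 at 46.7 to 772, COL3A1 at 0 to 77.8 and DCN at 2.13 to 21.8. Library C of siINO80#2 and, less clearly, library 1 of EPZ-6438 with NTG stood apart from the others of their groups. In the former the 10 most abundant genes took 20.4% of the counts, against 10.9 to 13.3% in the other 8 libraries. Between the latter and the others of its group, the chi-square of read counts per degree of freedom was 71.3 and 44.5. It was 30.2 between those others, and 43.9 between the libraries of EPZ-6438 with siMCRS1.

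**Figure D1:**
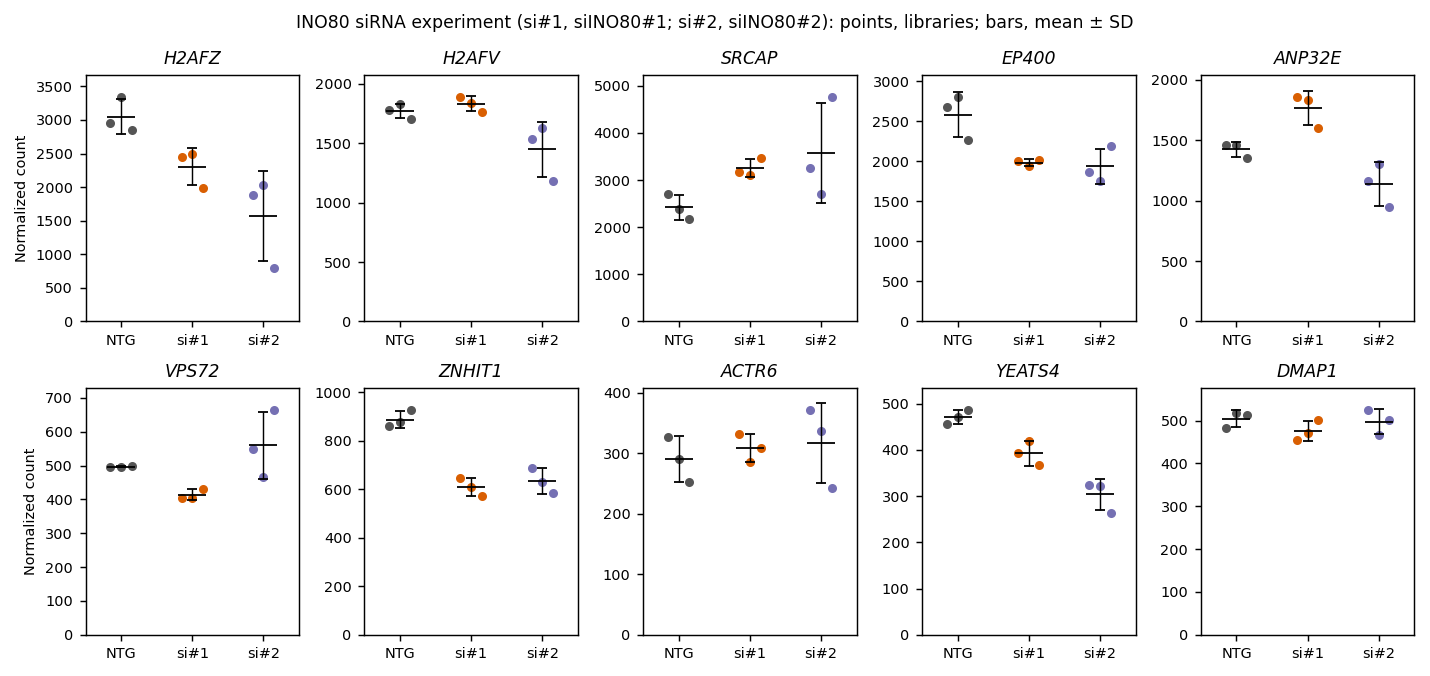
Normalized count (y axis, from 0) of each of the 10 genes in the NTG, siINO80#1 and siINO80#2 libraries, with 1 point per library and bars for mean ± SD (n = 3). The siINO80 points of H2AFZ, EP400, ZNHIT1 and YEATS4 lie below all NTG points, those of SRCAP lie above them, and the lone low H2AFZ point of 799 is library C of siINO80#2.

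EP400 and ZNHIT1 fell with both siRNAs against INO80, H2AFZ, H2AFV, ANP32E and YEATS4 fell with siINO80#2, and ANP32E rose with siINO80#1 and SRCAP with siINO80#2. With siINO80#1, 1 of the 10 genes rose and 2 fell, against 20.7% and 20.8% of the 14034 genes tested that rose and fell. With siINO80#2, 1 rose and 6 fell, against 26.6% and 28.4% of all genes. The median log2 fold change of the 10 was -0.17 with siINO80#1 and -0.32 with siINO80#2, and that of all genes tested was 0.00 in each. These comparisons share the NTG libraries, so they are not independent of each other. In bulk RNA, fewer cells that express a gene and less RNA per cell cannot be told apart.

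H2AFZ (chr4:99948088-99950275, minus strand), the more abundant H2A.Z gene, fell furthest of the 10 with siINO80#2. Its normalized counts were 2959, 3341 and 2847 with NTG, 2442, 2487 and 1987 with siINO80#1 and 1884, 2026 and 799 with siINO80#2. Every INO80 knockdown library lay below every control, whereas the ranges of the siRNAs overlapped, and the lowest value came from the library that stood apart. The mean was 75.6% of control with siINO80#1, a log2 fold change of -0.41 ± 0.28 (SE) that did not pass the test (limma, Benjamini-Hochberg adjusted p = 0.28). That p ran from 0.0066 to 0.35 over the alternatives that kept all libraries of the groups compared. It was the lowest, with a call, when only those groups were fitted, without siINO80#2. It was 51.5% of control with siINO80#2, a change of -1.07 ± 0.28 (adjusted p = 0.0078). Without library C the siINO80#2 change was -0.64, with an adjusted p of 0.00052.

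H2AFV (chr7:44826889-44848126, minus strand), the other H2A.Z gene, changed less. It was at 1778, 1830 and 1708 with NTG, at 1890, 1842 and 1763 with siINO80#1 and at 1537, 1625 and 1185 with siINO80#2. The siINO80#1 libraries overlapped the controls and the siINO80#2 libraries lay below them. The log2 fold change was 0.05 ± 0.11 (adjusted p = 0.75) with siINO80#1 and -0.30 ± 0.11 (adjusted p = 0.031) with siINO80#2, and the call with siINO80#2 was lost without any 1 of the NTG libraries (adjusted p 0.051 to 0.089). Without library C of siINO80#2 the change was -0.16 (adjusted p = 0.048). With all libraries kept, the siINO80#2 call was lost in limma without trend (adjusted p = 0.059). It was also lost when only the groups compared were fitted (adjusted p = 0.061).

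The balance between the H2A.Z genes was followed within each library as the ratio of H2AFZ to H2AFV counts, which needs no scaling between libraries. It was 1.66, 1.83 and 1.67 with NTG, 1.29, 1.35 and 1.13 with siINO80#1 and 1.22, 1.25 and 0.675 with siINO80#2. All 6 knockdown libraries lay below all 3 controls. This ratio was chosen with earlier results of these data known, a choice that its p-values do not cover. The mean log2 ratio fell by 0.61, to 0.655-fold (two-sided exact permutation test, p = 0.024, where 0.012 is the smallest p this design allows; 0.048 after adjustment over the 6 ratio tests). Without library A, B or C of NTG the exact p was 0.071, 0.14 and 0.071.

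Genes of cell proliferation moved in the same libraries. Of 16 such genes, 9 fell and 1 rose with siINO80#1, and 15 fell with siINO80#2 (median log2 fold change -0.40 and -1.13), beside the 20.8% and 28.4% of all genes that fell. Their summed normalized count was 44780 to 54027 with NTG, 36733 to 43429 with siINO80#1 and 20972 to 26552 with siINO80#2, with the lowest sum in the library with the lowest H2AFZ. H2A.Z genes are not on that list, and the part of cell proliferation in the fall of H2AFZ was not tested.

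**Figure D2:**
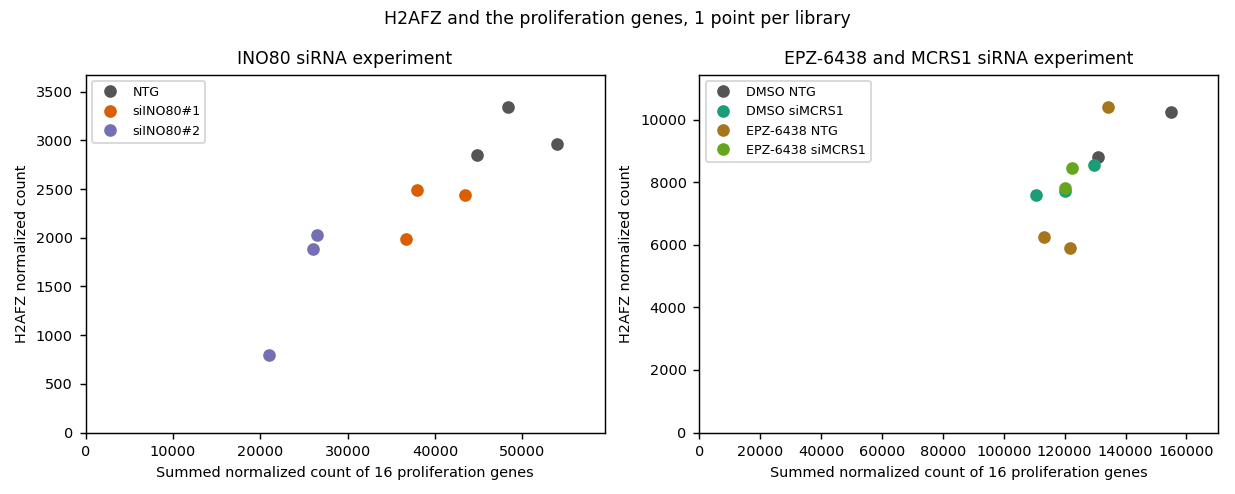
H2AFZ normalized count (y axis) against the summed normalized count of 16 proliferation genes (x axis), 1 point per library, INO80 experiment on the left and MCRS1 experiment on the right. On the left the 3 groups occupy separate ranges of the sum, from 20972 to 26552 for siINO80#2 up to 44780 to 54027 for NTG, and on the right the library of EPZ-6438 with NTG at 10407 lies far above the others of its group.

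The exchange ATPases moved in opposite directions. SRCAP (chr16:30699171-30741409, plus strand) was at 2708, 2392 and 2175 with NTG, at 3162, 3117 and 3465 with siINO80#1 and at 3258, 2713 and 4763 with siINO80#2. All knockdown libraries lay above the controls, 1 of them (2713) by only a few counts, and the highest value again came from library C. The log2 fold change was 0.43 ± 0.17 (adjusted p = 0.066) with siINO80#1 and 0.53 ± 0.17 (adjusted p = 0.022) with siINO80#2, or 0.30 without library C (adjusted p = 0.033), and the latter call was lost without library B or C of NTG (adjusted p = 0.055 and 0.081). SRCAP exons overlap those of genes on the same strand, TMEM265 among them, so some of its reads could belong to these.

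EP400 (chr12:131949942-132080460, plus strand), the motor of the complex that also carries the acetyltransferase KAT5, fell with both siRNAs. It was at 2671, 2801 and 2269 with NTG, at 2001, 1935 and 2010 with siINO80#1 and at 1863, 1755 and 2184 with siINO80#2, with no overlap between knockdown and control. The change was -0.38 ± 0.10 (adjusted p = 0.011) and -0.42 ± 0.10 (adjusted p = 0.0042). EP400 has a close copy, EP400NL, listed at 248 to 291 with NTG and at 259 to 369 in the knockdown libraries, so a small share of reads may be assigned to either.

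The ratio of SRCAP to EP400 within each library put these opposite directions into 1 value. The ratio was chosen with earlier results of these data known, a choice that its p-values do not cover. It was 1.01, 0.854 and 0.959 with NTG, 1.58, 1.61 and 1.72 with siINO80#1 and 1.75, 1.55 and 2.18 with siINO80#2. All 6 knockdown libraries lay above all 3 controls. The mean log2 ratio rose by 0.87, or 1.83-fold (two-sided exact permutation test, p = 0.012, the smallest this design allows; 0.036 after adjustment over the 6 ratio tests).

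**Figure D3:**
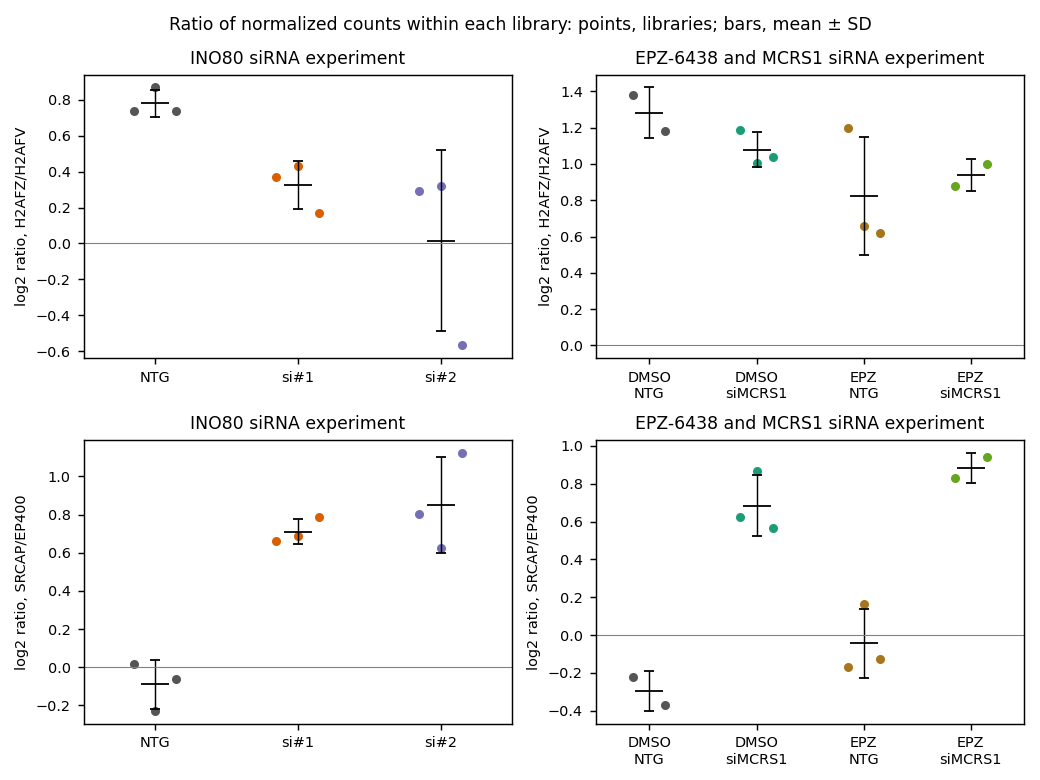
Log2 ratio of normalized counts within each library (y axis) for H2AFZ to H2AFV (top) and SRCAP to EP400 (bottom), by group, with points for libraries and bars for mean ± SD. SRCAP to EP400 lies higher in all 6 INO80 knockdown and all 5 MCRS1 knockdown libraries than in their controls, whereas H2AFZ to H2AFV is lower in the INO80 knockdown and overlaps between siMCRS1 and NTG.

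The genes of both H2A.Z-binding proteins differed between the siRNAs against INO80, as H2AFV and YEATS4 also did. ANP32E (chr1:150218417-150236112, minus strand), the chaperone that removes H2A.Z, was at 1463, 1458 and 1349 with NTG. It was at 1856, 1834 and 1603 with siINO80#1, all above the controls, and at 1162, 1306 and 947 with siINO80#2, all below them. The change was 0.31 ± 0.11 (adjusted p = 0.046) with siINO80#1 and -0.33 ± 0.11 (adjusted p = 0.026) with siINO80#2, and between the siRNAs it was -0.64 ± 0.11 (adjusted p = 0.0030). The siINO80#1 call did not hold when libraries were scaled to equal totals (0.23, adjusted p = 0.24, with 0.0066 to 0.24 over all alternatives) or without 1 library in 5 of 6 cases (adjusted p up to 0.14, the exception being library C of siINO80#1). It was also lost with quantile normalization (adjusted p = 0.063), with every gene above 0 tested (adjusted p = 0.064) and in limma without trend (adjusted p = 0.083). The siINO80#2 call was lost without library C (-0.21, adjusted p = 0.062) and without library A or B of NTG (adjusted p = 0.074 and 0.071). In limma without trend the siINO80#2 call was lost as well (adjusted p = 0.05). The difference between the siRNAs held in every such case (adjusted p up to 0.016).

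VPS72 (chr1:151176304-151190197, minus strand), known as YL1, is the subunit of both exchange complexes that holds the H2A.Z-H2B dimer. It was at 496, 496 and 498 with NTG, at 403, 406 and 432 with siINO80#1 and at 550, 466 and 663 with siINO80#2. The siINO80#1 libraries lay below the controls, and the siINO80#2 libraries fell on either side of them. Neither change against NTG passed the test (-0.26 ± 0.12, adjusted p = 0.089; 0.16 ± 0.12, adjusted p = 0.27), while the difference between the siRNAs did (0.42 ± 0.12, adjusted p = 0.025). That call was lost without any 1 siINO80#1 library or library A of siINO80#2 (adjusted p 0.052 to 0.079). It was also lost when only the groups compared were fitted (adjusted p = 0.061).

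Among the remaining subunits, ZNHIT1 fell with both siRNAs and YEATS4 with siINO80#2, while ACTR6 and DMAP1 did not pass the test. ZNHIT1 (chr7:101218165-101224190, plus strand), a subunit of the SRCAP complex, was at 859, 878 and 925 with NTG, at 645, 609 and 573 with siINO80#1 and at 689, 630 and 584 with siINO80#2. All 6 knockdown libraries were below 700 and all controls above 850. The change was -0.54 ± 0.08 (adjusted p = 0.00049) and -0.49 ± 0.08 (adjusted p = 0.00058), and the siRNAs differed by 0.06, with a 95% interval of -0.13 to 0.24. Its exons overlap PLOD3 on the opposite strand, and whether the counting used strand is not given in the sources used here.

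YEATS4 (chr12:69359743-69427072, plus strand), also called GAS41, reads acylated histones in both exchange complexes. Its counts were 455, 471 and 486 with NTG, 392, 419 and 366 with siINO80#1 and 324, 322 and 265 with siINO80#2. The 3 groups did not overlap. The change was -0.26 ± 0.10 (adjusted p = 0.060, and 0.049 with a replicate block) with siINO80#1 and -0.64 ± 0.10 (adjusted p = 0.00034) with siINO80#2, and -0.37 ± 0.10 (adjusted p = 0.024) between them. The difference between the siRNAs was lost without library A or B of siINO80#1 (adjusted p = 0.069 and 0.092). It was also lost with equal totals and when only the groups compared were fitted (adjusted p = 0.06 in each).

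ACTR6 (chr12:100200815-100224424, plus strand), the actin-related protein of the SRCAP complex, ranged from 243 to 371 over all 9 libraries with the groups overlapping. Its change was 0.09 ± 0.16 (adjusted p = 0.67) and 0.11 ± 0.16 (adjusted p = 0.57). DMAP1 (chr1:44213471-44220673, plus strand), a subunit of both exchange complexes, was at 483, 517 and 514 with NTG and between 455 and 524 in the knockdown libraries. Its 95% intervals, -0.26 to 0.09 with siINO80#1 and -0.20 to 0.16 with siINO80#2, were the narrowest of the 10 genes.

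Set directly against each other, siINO80#2 and siINO80#1 differed in 4 of the 10 genes. VPS72 was higher and H2AFV, ANP32E and YEATS4 were lower with siINO80#2, against 9.48% and 12.6% of all genes higher and lower. The H2AFV difference was -0.35 ± 0.11 (adjusted p = 0.037), which was lost without any 1 siINO80#1 library (adjusted p 0.071 to 0.11) and was -0.21 without library C of siINO80#2. With all libraries of the groups compared kept, the H2AFV call was lost in 4 of 10 alternatives (adjusted p up to 0.088). H2AFZ differed by -0.66 ± 0.28, which did not pass (adjusted p = 0.12). Without library C of siINO80#2 it was -0.23 (adjusted p = 0.15), and without library B it was -0.90 (adjusted p = 0.038).

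**Figure D4:**
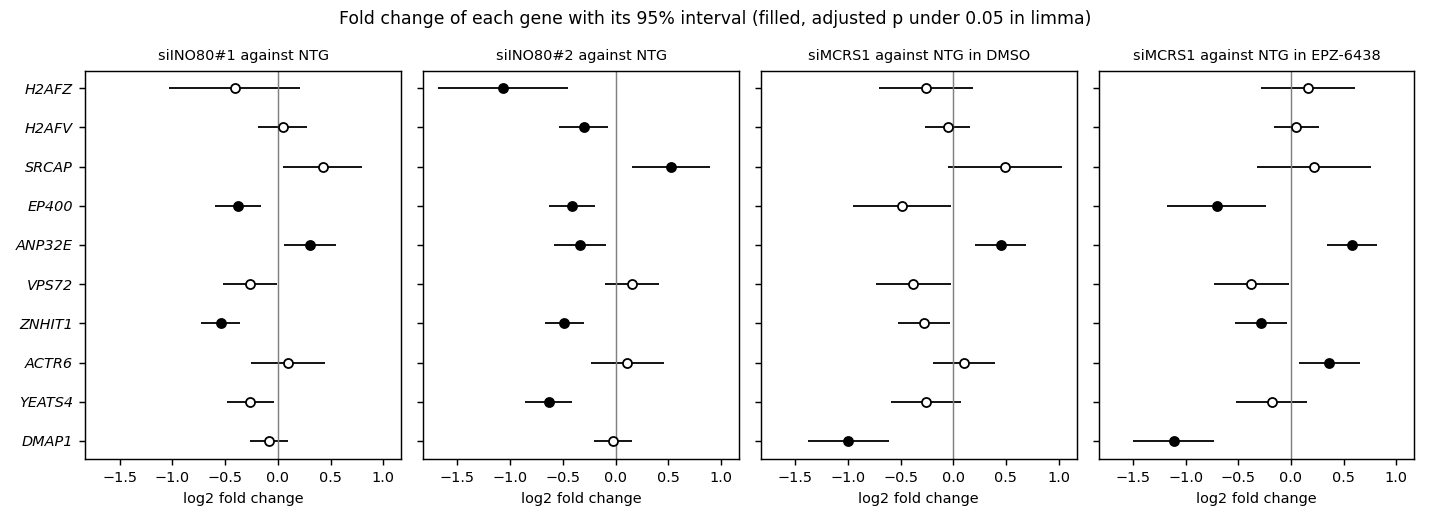
Log2 fold change (x axis) of each gene with its 95% interval in the INO80 and MCRS1 knockdown comparisons, with filled points for an adjusted p under 0.05 in limma. H2AFZ at -1.07 with siINO80#2 and DMAP1 at -0.99 and -1.11 with siMCRS1 are farthest from 0, and the EP400 points are left of 0 and the SRCAP points right of 0 in all 4 comparisons, although with equal totals SRCAP in EPZ-6438 turns to -0.02.

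The target of the second experiment, MCRS1, is itself a subunit of the INO80 complex, and it was knocked down in cells with and without EPZ-6438. MCRS1 also belongs to another complex, NSL, and the part of each complex in the changes with siMCRS1 was not tested. DMAP1 fell and ANP32E rose, in DMSO and in EPZ-6438, while neither H2A.Z gene passed the test. In DMSO, 1 of the 10 genes rose and 1 fell, against 23.1% and 24.6% of the 14312 genes tested. In EPZ-6438, 2 rose and 3 fell, against 26.8% and 26.9% of all genes. For the 10 genes the log2 fold change had its median at -0.26 with DMSO and at -0.07 with EPZ-6438, beside 0.00 and 0.01 for all genes tested. Values of this experiment were scaled apart from those of the INO80 experiment and are not compared with them.

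**Figure D5:**
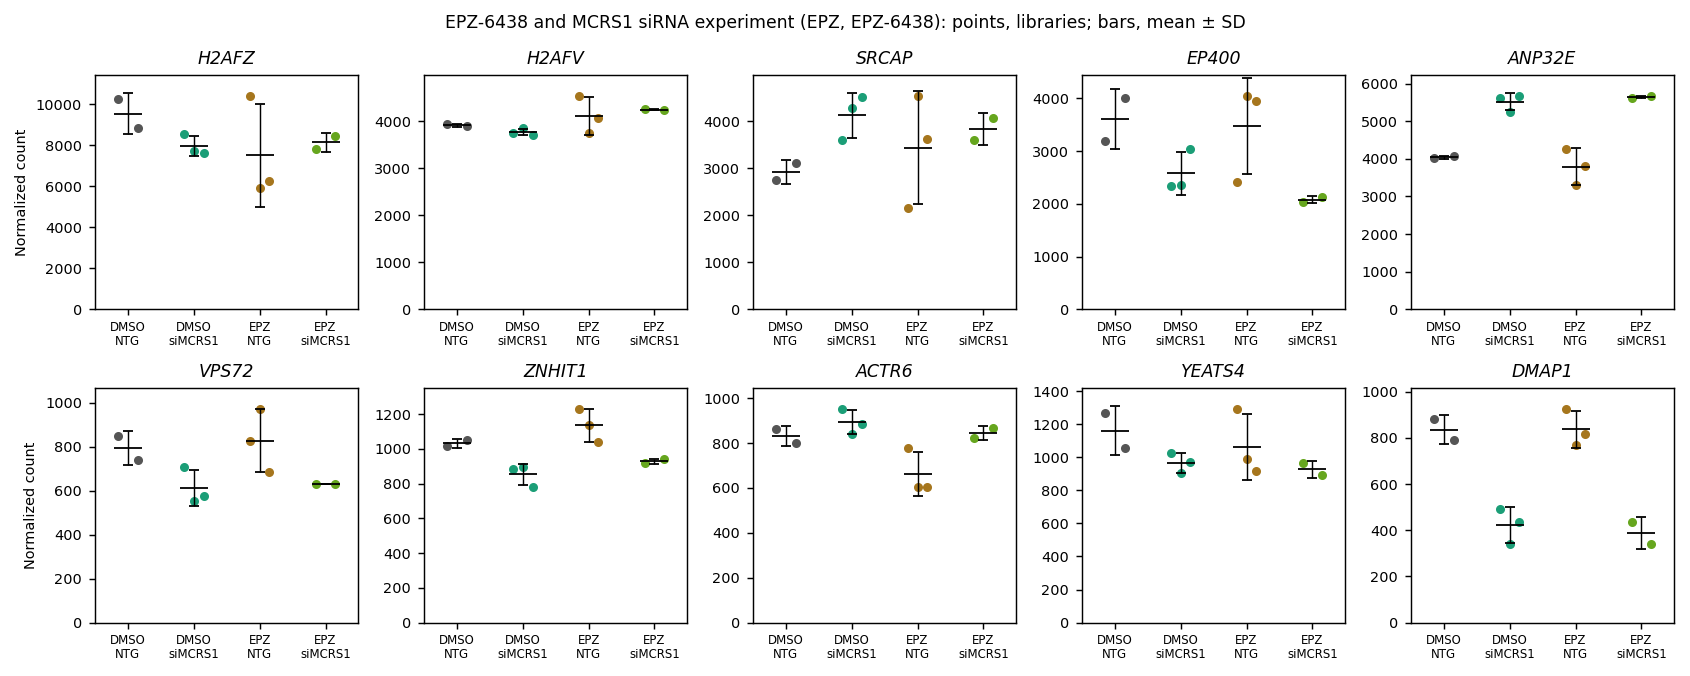
Normalized count (y axis, from 0) of each of the 10 genes in the second experiment, with 1 point per library and bars for mean ± SD (n = 2 or 3). DMAP1 is lower and ANP32E higher in all 5 siMCRS1 libraries than in all 5 NTG libraries, and library 1 of EPZ-6438 with NTG is the high H2AFZ point (10407) and the low SRCAP point (2153) of its group.

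DMAP1 had the largest change of the 10 genes with siMCRS1. It was at 881 and 791 in DMSO with NTG against 493, 340 and 437 with siMCRS1, and at 924, 771 and 815 in EPZ-6438 with NTG against 437 and 340 with siMCRS1. All 5 knockdown libraries were below 500 and all 5 controls above 750. The mean was 50.6% of control in DMSO, a log2 fold change of -0.99 ± 0.17 (adjusted p = 0.00095), and 46.4% in EPZ-6438, a change of -1.11 ± 0.17 (adjusted p = 0.00037). These calls held without any 1 library (adjusted p 0.00071 to 0.014 with DMSO, 0.00083 to 0.0073 with EPZ-6438), and the change differed between the conditions by -0.12, with a 95% interval of -0.66 to 0.42. By size, the DMAP1 change exceeded that of 81.1% of all genes tested in DMSO and 81.3% in EPZ-6438.

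ANP32E was at 4011 and 4068 in DMSO with NTG against 5630, 5253 and 5674 with siMCRS1. In EPZ-6438 it was at 4267, 3299 and 3817 with NTG against 5615 and 5662 with siMCRS1. The knockdown libraries again all lay above the controls. The change was 0.45 ± 0.11 (adjusted p = 0.0063) in DMSO and 0.58 ± 0.11 (adjusted p = 0.0012) in EPZ-6438. The rise depended on the scaling. With equal library totals, which lowered the median of all genes by 0.23, it was 0.21 (adjusted p = 0.19) in DMSO and 0.34 (adjusted p = 0.044) in EPZ-6438, and with quantile normalization 0.24 (adjusted p = 0.15) and 0.31 (adjusted p = 0.059).

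In DMSO the ATPases had opposite signs here too, and in EPZ-6438 EP400 fell while the sign of SRCAP depended on the scaling. SRCAP was at 2743 and 3101 in DMSO with NTG against 3590, 4288 and 4506 with siMCRS1, and at 2153, 4538 and 3618 in EPZ-6438 with NTG against 3598 and 4071. EP400 was at 3200 and 4006 against 2334, 2354 and 3042 in DMSO, and at 2420, 4047 and 3947 against 2026 and 2121 in EPZ-6438. EP400 was lower in every siMCRS1 library than in the controls of the same drug condition, whereas SRCAP overlapped in EPZ-6438. In the test, EP400 changed by -0.49 ± 0.21 (adjusted p = 0.080) in DMSO and by -0.71 ± 0.21 (adjusted p = 0.016) in EPZ-6438, and SRCAP by 0.49 ± 0.25 (adjusted p = 0.12) and 0.22 ± 0.25 (adjusted p = 0.47). The SRCAP value in EPZ-6438 was -0.02 with equal totals, -0.02 with quantile normalization and -0.08 without library 1 of NTG. The EP400 change in DMSO passed with equal totals (-0.72, adjusted p = 0.017), with quantile normalization (adjusted p = 0.035) and when only the groups compared were fitted (adjusted p = 0.030). The SRCAP change in DMSO shrank to 0.26 (adjusted p = 0.39) with equal totals and to 0.31 (adjusted p = 0.35) with quantile normalization. It passed when only the groups compared were fitted (adjusted p = 0.013). The EP400 call in EPZ-6438 was lost without library 2 or 3 of NTG or either library of siMCRS1 (adjusted p 0.053 to 0.072).

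Within each library, the ratio of SRCAP to EP400 was 0.857 and 0.774 in DMSO with NTG and 1.54, 1.82 and 1.48 with siMCRS1. It was 0.890, 1.12 and 0.917 in EPZ-6438 with NTG and 1.78 and 1.92 with siMCRS1. The 5 knockdown libraries all lay above the 5 controls. Here too the p-values do not cover the choice of this ratio with earlier results known. With drug as a stratum, the mean log2 ratio rose by 0.95, or 1.94-fold (two-sided exact permutation test within drug, p = 0.010, the smallest this design allows; 0.036 adjusted over the 6 ratio tests).

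The H2A.Z genes showed no change that passed the test. H2AFZ was at 10240 and 8824 in DMSO with NTG against 8543, 7735 and 7612 with siMCRS1, and at 10407, 5899 and 6242 in EPZ-6438 with NTG against 7819 and 8473. Its change was -0.26 ± 0.20 (adjusted p = 0.32) in DMSO and 0.16 ± 0.20 (adjusted p = 0.52) in EPZ-6438, where without library 1 of NTG it became 0.42 (adjusted p = 0.0087). With equal totals and with quantile normalization the H2AFZ change was -0.49 (adjusted p = 0.074) and -0.54 (adjusted p = 0.057) in DMSO, and its sign turned in EPZ-6438 (-0.07 and -0.14). H2AFV stayed between 3707 and 4539 over the 10 libraries, with 95% intervals of -0.26 to 0.16 for the DMSO change and -0.16 to 0.26 for the EPZ-6438 one, but with equal totals its DMSO change was -0.29 instead of -0.05 and passed (adjusted p = 0.043). The ratio of H2AFZ to H2AFV differed by -0.04 on the log2 scale (two-sided exact permutation test within drug, p = 0.77, smallest possible 0.010). Of the 16 proliferation genes, 9 fell and 1 rose in DMSO, and 3 fell and 4 rose in EPZ-6438, beside 24.6% and 26.9% of all genes that fell and 23.1% and 26.8% that rose.

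Of the other subunits, ZNHIT1 was lower in all 5 siMCRS1 libraries (784 to 940) than in all 5 controls (1015 to 1229), a change of -0.28 ± 0.11 (adjusted p = 0.060) in DMSO and -0.29 ± 0.11 (adjusted p = 0.049) in EPZ-6438. The latter call did not hold under quantile normalization (adjusted p = 0.065) or without library 1 or 2 of NTG or either siMCRS1 library (adjusted p up to 0.17). ACTR6 was at 777, 605 and 604 in EPZ-6438 with NTG against 823 and 869 with siMCRS1, a rise of 0.36 ± 0.13 (adjusted p = 0.038) that was 0.13 (adjusted p = 0.49, with 0.011 to 0.49 over all alternatives) with equal totals and was lost without library 2 or 3 of NTG or either siMCRS1 library (adjusted p up to 0.18). In DMSO the ACTR6 change was 0.10 ± 0.13 (adjusted p = 0.55). VPS72 changed by -0.38 ± 0.16 in each condition (adjusted p = 0.075 and 0.070), and YEATS4 by -0.26 ± 0.15 (adjusted p = 0.19) and -0.18 ± 0.15 (adjusted p = 0.33). Scaled to equal totals, these subunits passed in both conditions: VPS72 at -0.61 (adjusted p = 0.0067) in DMSO and -0.62 (adjusted p = 0.0059) in EPZ-6438, YEATS4 at -0.49 (adjusted p = 0.024) and -0.42 (adjusted p = 0.043), and ZNHIT1 at -0.51 (adjusted p = 0.0027) and -0.52 (adjusted p = 0.0020).

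EPZ-6438 itself moved none of the 10 genes past the threshold, in limma or in edgeR on recovered reads. With NTG, 0.321% of all genes were higher and 0.0629% lower in EPZ-6438 than in DMSO, and with siMCRS1 0.0838% and 0.00699%. At an unadjusted p under 0.05, 1 of the 10 passed with NTG and 0 with siMCRS1. That gene was ACTR6, at 864 and 800 in DMSO with NTG and at 777, 605 and 604 in EPZ-6438 (-0.34 ± 0.13, unadjusted p = 0.027, adjusted p = 0.23). H2AFZ differed by -0.39 ± 0.20 (adjusted p = 0.35), with library 1 of EPZ-6438 above both DMSO libraries and the other 2 below them, and by -0.65 without that library (adjusted p = 0.053). Over the 10 genes the change lay between -0.39 and 0.17 with NTG and between -0.30 and 0.17 with siMCRS1. The exact permutation test within siRNA gave p = 0.09 (0.11 adjusted) for the ratio of H2AFZ to H2AFV and p = 0.05 (0.075 adjusted) for SRCAP to EP400, both two-sided.

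The effect of siMCRS1 was not shown to differ between DMSO and EPZ-6438 for any of the 10. In the interaction test 0 of 10 passed, 0 had an unadjusted p under 0.05 and edgeR called 0, with 0% of all genes called in either direction. The intervals were wide: that of H2AFZ ran from -0.21 to 1.05 and that of SRCAP from -1.04 to 0.49. The EPZ-6438 and siMCRS1 comparisons share the DMSO libraries with NTG, and those in EPZ-6438 share the libraries of EPZ-6438 with NTG.

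Divided by the length of the reference transcript, the control levels in the INO80 experiment ran from 3521 ± 300 normalized counts per kb (SD, n = 3) for H2AFZ and 1219 ± 47.2 for ZNHIT1, through 586 ± 20.3 for H2AFV and 418 ± 18.9 for ANP32E, down to 167 ± 21.7 for ACTR6. Between lay VPS72 (329 ± 0.856), YEATS4 (321 ± 10.5), DMAP1 (290 ± 10.9), EP400 (210 ± 22.6) and SRCAP (207 ± 22.9). The neighbours VPS72 and YEATS4, and EP400, SRCAP and ACTR6, did not differ beyond their spread. In siINO80#1 libraries SRCAP stood at 277 ± 16.1 per kb and EP400 at 161 ± 3.30, and in siINO80#2 libraries at 305 ± 90.6 and 157 ± 18.2.

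Other genes of the same machinery were set beside the share of all genes called in the same comparison, which, for siINO80#1, siINO80#2 and siMCRS1 in DMSO and in EPZ-6438, was 20.7%, 26.6%, 23.1% and 26.8% higher and 20.8%, 28.4%, 24.6% and 26.9% lower. Of 11 further genes of the EP400 and KAT5 complex, 4 rose and 1 fell with siINO80#1, 5 rose and 2 fell with siINO80#2, 6 rose and 1 fell with siMCRS1 in DMSO and 8 rose and 1 fell in EPZ-6438. KAT5, its acetyltransferase, rose by 1.22, 1.19, 1.07 and 0.91 on the log2 scale in these comparisons, and the scaffold EPC1 by 0.62, 0.78, 0.93 and 0.92. Of 4 subunits shared with the INO80 complex, 2 rose and 1 fell with siINO80#1, and 1 rose and 0 fell in each other comparison. RUVBL2 rose in all 4 comparisons, by 0.49 to 0.54. Of 12 genes of the INO80 complex, the targets included, 1 rose and 2 fell, 3 rose and 2 fell, 3 rose and 4 fell, and 3 rose and 5 fell, with NFRKB higher in each (0.53, 0.68, 0.64 and 0.78).

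A list of 6 other genes held H2A.Z or H2A-H2B chaperones and readers together with paralogs of ANP32E. Of these 6, 2 rose and 1 fell with siINO80#1, and 1 rose and 4 fell with siINO80#2. With siMCRS1, 2 rose and 1 fell in DMSO and 4 rose and 0 fell in EPZ-6438. These counts are to be read against the same shares of all genes. BRD2, a bromodomain protein found with H2A.Z nucleosomes, rose by 0.41, 0.69, 1.06 and 0.91. PWWP2A, a reader of H2A.Z that was picked after its values were seen, was, like ANP32E, higher with siINO80#1 (0.34) and lower with siINO80#2 (-0.25), and rose with siMCRS1 (0.64 and 0.67). The ANP32E paralog ANP32B was at 81.8% of control with siINO80#1, 69.3% with siINO80#2, and 113.8% and 129.7% with siMCRS1. The paralog ANP32A was at 96.3%, 74.1%, 83.9% and 93.1% in the same order. Of 4 genes for other H2A variants, 0 rose and 2, 3, 2 and 2 fell, H2AFJ (-0.54, -0.76, -0.53 and -0.89) and H2AFY2, a macroH2A gene (-0.64, -1.30, -1.03 and -1.01), in every comparison.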

How the data were processed

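Stranded mRNA libraries of HepG2 cells were measured in 2 experiments, 19 libraries in all. For each experiment the authors deposited a table of a signal that is 0 or above: counts per gene, each library divided by its own size factor. Every value was a whole multiple of 1 read within 0.01 reads, so whole reads and depth were recovered (3 reads equal 2.13 to 4.30 normalized counts). The submitters' processing notes name kallisto, DESeq2 and GRCh38, whose versions and settings are not given in the sources used here. Counts may therefore be rounded estimates, in which near-identical genes share reads.

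Columns were matched to samples by name. For most columns of the second experiment the name gives the group and a number but not which sample.

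Genes with a mean normalized count of at least 10 were tested on log2(normalized count + 1) with limma 3.58.1 (R 4.3.3, eBayes with trend), with all groups of a table in 1 fit, and p-values were adjusted over all genes tested by Benjamini-Hochberg. A gene was called at an adjusted p under 0.05. A fold change on this scale slightly understates changes of low genes. The recovered reads were tested with edgeR 4.0.16 as an alternative, and it called 3, 7, 4, 3 and 6 members for siINO80#1, siINO80#2, siINO80#2 against siINO80#1, and siMCRS1 in DMSO and in EPZ-6438, where limma called 3, 7, 4, 2 and 5. Ratios of counts within a library were compared with exact permutation tests, permuting within drug or siRNA in the second experiment. In the INO80 experiment both siRNAs were pooled against NTG and labels were permuted over all libraries. Alternatives were other pseudocounts and filters, equal library totals, quantile normalization, eBayes without trend, fits of only the groups compared, a replicate block and leaving out each library. Same-letter NTG and siINO80#1 libraries deviated together (correlations 0.14, 0.25 and 0.26), so the block was read as pairing them. These correlations are not independent, because deviations from a group mean sum to 0 within the group. The main limma fit and the ratio tests did not use the pairing. The code was tested on simulated data. All 10 members were named, and of each other list at most 3 genes called in the same direction with both INO80 siRNAs, by size of change. PWWP2A and ANP32A were named outside this rule. The members, lists and ratios were chosen with earlier results of these data known. Gene coordinates, promoters and starts are from RefSeq (GRCh38). For H2AFV the promoter start is not the outermost end of the gene. Transcript lengths and exon overlaps are from GENCODE. ChIP data of the study were not used here.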

Additional observations from a re-analysis of the deposited data

Results flagged for a closer look

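The effects of siINO80#1 and siINO80#2, measured against the same NTG libraries, differed for 4 of the 10 genes in the limma test of siINO80#2 against siINO80#1, which called 9.48% of all genes higher and 12.6% lower. The difference was -0.64 for ANP32E, -0.35 for H2AFV, -0.37 for YEATS4 and 0.42 for VPS72, on the log2 scale. Leaving out 1 of the 6 libraries compared lost the call of H2AFV in 3 cases, of VPS72 in 4, of YEATS4 in 2 and of ANP32E in 0. INO80 itself was at 48.1% of control with siINO80#1 and 36.4% with siINO80#2, and the part of the deeper knockdown in these differences was not tested. All ANP32E values lay above the controls with siINO80#1 and below them with siINO80#2, while YEATS4 was lower in all 6 knockdown libraries.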

How the results depend on the processing

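Over the alternatives that kept all libraries of the groups compared, 24 of 210 values called in the main test lost the call, 23 of 580 uncalled values gained one, and 0 called values changed sign. Leaving out 1 library lost 34 of 119 calls and reversed 0. The number of the 10 genes called with siINO80#1 was 3, and 7 when only the groups compared were fitted. For siINO80#2 against siINO80#1 it was 4, but 2 with equal totals and 1 with only the groups compared. For siMCRS1 in DMSO it was 2, but 6 with equal totals and 4 with only the groups compared. For siMCRS1 in EPZ-6438 it was 5, but 3 with every gene above 0 tested, 3 with quantile normalization and 3 with only the groups compared. Scaling to equal totals shifted the median of all genes by -0.08 and -0.11 for the INO80 siRNAs and by -0.23 for siMCRS1 in each condition. Leaving out 1 library at a time gave 2 to 3 genes for siINO80#1, 4 to 8 for siINO80#2 (4 without library B of NTG), 1 to 5 between the siRNAs (1 without library A or B and 2 without library C of siINO80#1), 2 to 3 for siMCRS1 with DMSO, and 2 to 5 for siMCRS1 with EPZ-6438 (2 without library 2 of NTG or either siMCRS1 library). Where this left a group with 1 library, that library was assumed to vary like the other groups. For the ratio of H2AFZ to H2AFV it gave -0.66 to -0.46 (exact p 0.018 to 0.14) for siINO80 and -0.39 to -0.25 (exact p 0.025 to 0.17) for EPZ-6438, and for SRCAP to EP400 0.17 to 0.27 (exact p 0.033 to 0.17) for EPZ-6438. Without library 3 of DMSO with NTG or library 1 of EPZ-6438 with NTG the former fell under 0.05 (exact p = 0.025 and 0.033), and without library 2 of DMSO with siMCRS1 the latter did (exact p = 0.033). The cause of these changes was not tested.

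Same-letter libraries of siINO80#2 and NTG or siINO80#1 did not meet the rule for pairing (every correlation over 0.1): their deviations correlated by -0.08 to 0.09 and by 0.00 to 0.13. With a replicate block, 4, 7 and 5 of the 10 genes were called for siINO80#1, siINO80#2 and between them. The calls gained were YEATS4 with siINO80#1 and H2AFZ between the siRNAs (adjusted p 0.049 and 0.050), and no other call changed. In the second experiment a block by column number, with the columns lettered A and B read as 1 and 2, was added after seeing the data. Same-number deviations correlated by 0.20 on average over 12 pairs (-0.02 to 0.30), against -0.10 over the 25 others, and did not meet the rule. Deviations from a group mean sum to 0 within the group, so these averages are not independent of each other. Under this block 5 of the 10 genes were called for siMCRS1 in DMSO (EP400, VPS72 and ZNHIT1 gained, adjusted p 0.019, 0.027 and 0.018) and 6 in EPZ-6438 (VPS72 gained, 0.015). It called 0 for the EPZ-6438 comparisons and the interaction, while over all genes the EPZ-6438 calls rose from 55 to 1779 with NTG and from 13 to 100 with siMCRS1. With 2 or 3 libraries per group, standard errors of the 10 genes ran from 0.08 to 0.28 on the log2 scale.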
